A study of Mus musculus with 9 samples.

Results

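The mRNA of a striatal cell line heterozygous for an expanded huntingtin allele (HD-het) was compared with that of its control line, in 6 of the 9 RNA-seq libraries of the study. The control line, STHdhQ7/Q7, carries 7 glutamine repeats on both huntingtin alleles. The study describes the lines as knock-in models, with the control derived from wild-type embryos. The HD-het line, STHdhQ7/Q111, carries 1 allele with 7 repeats and 1 with 111. Both were labelled striatal cells of C57/BL6 mice, and were derived from embryos and immortalized. A line with 111 repeats on both alleles (HD-homo, 3 libraries) entered the count filter, the scaling and the model for the spread between libraries. It is otherwise used only where stated. Each genotype was represented by 1 cell line with 3 libraries, so the genotype cannot be told apart from other differences between lines, and nothing in the labels said that the libraries came from separate cultures. The p-values therefore measure the spread between these libraries, which may be technical. Of 36410 genes in the table, 13508 had enough reads across the 9 libraries to be tested, and every tested gene was eligible. With only the control and HD-het libraries, 13095 genes would have been tested. Levels are given as CPM, counts scaled to a common library total after TMM correction, and a gene was called when its Benjamini-Hochberg adjusted p in edgeR's quasi-likelihood test was below 0.05. Differences are log2 fold changes of HD-het over control with their standard errors.

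Huntingtin is a large scaffold protein whose first exon encodes a run of glutamines, and expansion of that run causes Huntington disease, in which striatal projection neurons are lost early. The groups described here cover the matrix around cells, the regulators of development, defence against infection, and the routine work of making sterols, ribosomes and new DNA. Collagens, laminins and their integrin receptors form the extracellular matrix and anchor cells to it, and TGF-beta and growth factor signals are known to control them. Hox genes record position along the body axis and are normally silent in the forebrain, where Dlx, Gsx and Meis factors pattern the striatum. Interferon-stimulated genes share a promoter element bound by interferon-regulated factors. Genes of cholesterol synthesis answer to SREBP-2, encoded by Srebf2, together with the CCAAT-binding factor NF-Y.

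The sequence that defines the lines and the promoter elements of the sterol and interferon groups are shown first. The reference Htt gene holds its glutamine codons in exon 1 of 67, on the plus strand at chr5:34761955-34761981 of GRCm38. Capitals mark the 7 glutamine codons of the reference, which begin at residue 18, and the HD-het line carries 111 such repeats on 1 allele.
Htt: tttCAGCAGCAACAGCAGCAGCAGcca
For the sterol group, CCAAT was searched on both strands from 250 bases before to 50 after each RefSeq gene start (GRCm38.p6), and overlapping matches were kept. The members printed are those with the largest decreases among the called members that held a match. Capitals mark CCAAT or its reverse complement ATTGG, read along the gene's strand.
Idi1 (chr13:8885553-8885573, plus strand): tccagctgATTGGcgagcccg
Srebf2 (chr15:82147126-82147146, plus strand): gcgcgccgATTGGctaatgca
Cyp51 (chr5:4104714-4104734, minus strand): gtccgccaCCAATctggtcct
Msmo1 (chr8:64733726-64733746, minus strand): ccgcgcagCCAATgactggcg
Hmgcs1 (chr13:119690106-119690126, plus strand): gaccttcaATTGGtcggagaa
The pentamer stood in the promoters of 17 of 18 sterol genes with a RefSeq promoter (94.4%), against 41.1% of 27025 promoters of the same length. Among 10396 promoters of tested genes the share was 43.2%. Of the sterol genes it stood in 13 of 14 that fell, 1 of 1 that rose and 3 of 3 not called. For the interferon-stimulated genes the core GAAANNGAAA was searched in the same way, and capitals mark it or its reverse complement.
Trim21 (chr7:102565452-102565477, minus strand): tctgagagGAAACTGAAAgtgaaatt
Ifitm3 (chr7:141010725-141010750, minus strand): aaattcagGAAAAGGAAActtctgag
Irgm1 (chr11:48871433-48871458, minus strand): tgtttcaaGAAATAGAAAccgaaact
Ddx58 (chr4:40239806-40239831, minus strand): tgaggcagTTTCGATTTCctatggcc
Ifitm2 (chr7:140955990-140956015, minus strand): accaacagGAAAAGGAAAttgctaga
This core stood in 24 of 47 promoters of the group (51.1%), against 3.99% of all promoters. A match describes letters only and is not evidence of binding.

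The 6 libraries held 29507665 to 35978570 counts each, and TMM factors lay between 0.984 and 1.003. The third library of each line stood slightly apart from its 2 partners, with a chi-square per gene of 10.9 to 20.9 against 2.19 between control 1 and 2 and 6.14 between HD-het 1 and 2. Of 12 markers of striatal projection neurons 5 were read enough to be tested, 2 higher and 2 lower (over all tested genes, 33.8% were higher and 31.4% lower), and their summed level of 90.3 to 100 CPM in control and 115 to 118 CPM in HD-het libraries was nearly all Foxp1. Drd1, the D1 dopamine receptor, had no read, and Ppp1r1b, which encodes DARPP-32, had 1 to 3 reads in each of the 6 libraries. The neuron markers Rbfox3, Syt1, Snap25 and Nefl had 0 to 3 reads, but 3 of 7 neuron markers were tested, with 1 higher and 1 lower and a summed level of 96.8 to 116 CPM in control and 107 to 114 CPM in HD-het libraries, most of it Map2 and Tubb3. All 6 markers of neural progenitors were tested, with 4 higher and 2 lower, and their summed level was 5900 to 6360 CPM in control and 5330 to 5840 CPM in HD-het libraries. Nes, an intermediate filament of progenitors, was at 544, 548 and 486 CPM in control and 857, 841 and 821 CPM in HD-het libraries, and the filament gene Vim, which made up most of the sum, was at 5261, 5192 and 5696 CPM in control and 4492, 4342 and 4869.8 CPM in HD-het libraries. The pan-leukocyte gene Ptprc had 5 to 19 reads and the microglial gene Aif1 none. Of 8 fibroblast markers Lum and Thy1 had 0 or 1 read, but 6 were tested, with 3 higher and 2 lower. The summed level of the fibroblast markers was 2570 to 3480 CPM in control and 7870 to 9100 CPM in HD-het libraries. Among 4 tested microglia and macrophage markers 2 rose and 1 fell, and their summed level was 14.3 to 18 CPM in control and 45.8 to 57.8 CPM in HD-het libraries, most of it Tmem119, a membrane protein also known from bone-forming cells. In such bulk libraries a smaller share of cells of a type and less RNA per cell cannot be told apart.

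Most of the tested transcriptome differed between the lines. In all, 4561 genes rose (33.8%) and 4236 fell (31.4%) in HD-het cells, together 65.1% of those tested. The libraries of the lines did not overlap for 74% of the genes, with HD-het higher for 38.7% and lower for 35.4%. Large changes leaned upward: 1622 called genes rose and 868 fell by at least 1 on the log2 scale, and 139 rose and 55 fell by at least 5. Over all tested genes the median log2 fold change was 0.0251, with quartiles of -0.349 and 0.465. Because calls were this frequent, each gene group below is read against the shares of 33.8% and 31.4%.

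Htt itself, on chromosome 5 (34761721 to 34912534, plus strand, GRCm38), was measured at 104, 103 and 93 CPM in the control libraries and 61.8, 64 and 61.1 CPM in the HD-het libraries. Every HD-het library lay below every control library. The mean was 99.97 ± 6 (SD, n = 3) in control and 62.3 ± 1.51 (SD, n = 3) in the HD-het line. The log2 fold change was -0.68 ± 0.065 (SE), with an adjusted p of 4.4e-06 in edgeR's quasi-likelihood test. The HD-homo libraries stood at 19.7, 21.7 and 19.2 CPM. How reads from the expanded and knock-in exon 1 were mapped to the reference was not tested. The group of huntingtin partners moved little as a whole, with 3 of 16 higher, 5 lower and a median of 0.03. In that group Hap1, which encodes huntingtin-associated protein 1, fell by 1.53 and Cyfip2, a component of the actin-regulating WAVE complex, fell by 1.36 on the log2 scale. Without the third HD-het library, 5 members rose.

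Several genes were read almost only in 1 line. Lrrn1, a leucine-rich repeat membrane protein, had no read in the control libraries and 1434, 1450 and 1592 reads in the HD-het libraries, which makes it at least 467-fold higher against a floor of 3 reads per library. Ltbr, the lymphotoxin beta receptor, went from 0 to 2 reads in control libraries to 19.3, 18.8 and 20.2 CPM, at least 206-fold higher. In the opposite direction Lxn, an inhibitor of carboxypeptidases, had 1772, 1872 and 1428 reads in control and none in HD-het libraries, at least 598-fold lower. Pax2, a paired-box factor of the midbrain-hindbrain region, went from 34.3, 32.9 and 31.6 CPM to 1 or 2 reads and was at least 372-fold lower. Arsj, an arylsulfatase, went from 29.7, 30.7 and 28.4 CPM to no read. In all, 84 genes with a mean of at least 1 CPM in HD-het cells were at or under the floor in every control library, and 26 were so in the reverse direction.

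Among the genes read in both lines, the largest increases included genes of the matrix. Aebp1, a secreted collagen-binding protein, was at 0.715, 0.565 and 0.338 CPM in control and 189, 175 and 226 CPM in HD-het libraries, a 364-fold rise. Bgn, which encodes the proteoglycan biglycan, stood at 6.1, 5.92 and 4.16 CPM in control and 1314, 1265 and 1378 CPM in HD-het libraries, 245-fold higher, with a log2 fold change of 7.93 ± 0.17 and an adjusted p of 7e-11. The matrix sulfatase Sulf1 rose 179-fold. Tm4sf1, a tetraspan membrane protein, was at 574, 555 and 568 CPM in control and 2.26, 2.56 and 3.14 CPM in HD-het libraries, 213-fold lower. The tetraspanin Cd82 fell 203-fold and the microtubule-binding neuron navigator Nav3 fell 168-fold. The libraries of the lines did not overlap for any of these genes, which the rule for naming them required.

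**Figure D1:**
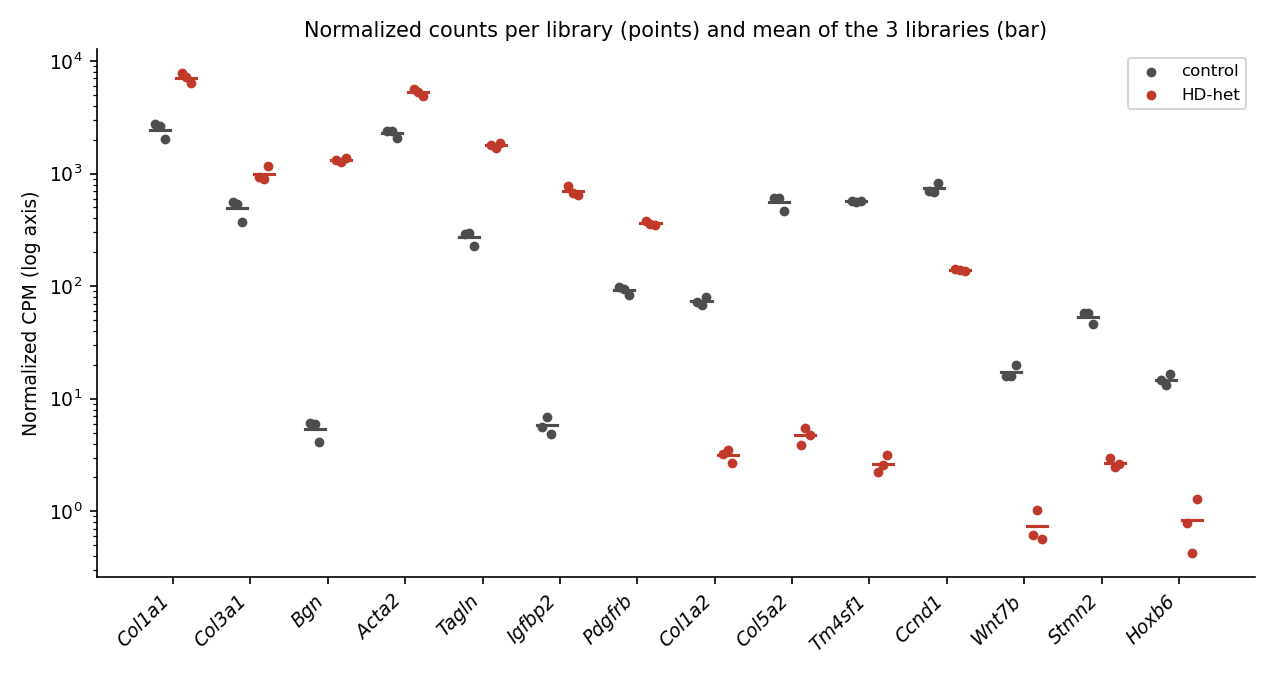
Normalized CPM (log axis) of 14 genes in each of the 3 control (grey) and 3 HD-het (red) libraries, with a bar at each mean. Bgn and Igfbp2 sit over 100-fold higher in HD-het cells and Tm4sf1 and Col5a2 over 100-fold lower, while Col1a1, Col3a1 and Acta2 differ by smaller folds with no overlap.

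Collagens and most other matrix groups rose. Of 33 tested collagen genes, 20 rose and 4 fell, with a median log2 fold change of 1.17, or 0.93 with genes at the floor set to their bound. Such second medians, here and below, set members at the floor in 1 line to their bound. They leave out members at the floor in both lines, which have no bound. Type I collagen was split: Col1a1, the alpha 1 chain, stood at 2733, 2635 and 2027 CPM in control and 7791, 7172 and 6329 CPM in HD-het libraries (log2 fold change 1.53 ± 0.12, adjusted p = 8.6e-07), whereas Col1a2, the alpha 2 chain, was at 71.9, 68.1 and 80.2 CPM in control and 3.21, 3.54 and 2.7 CPM in HD-het libraries (log2 fold change -4.54 ± 0.11, adjusted p = 1.3e-10). Neither pair of groups overlapped, and the partner chains moved in opposite directions. Col3a1, the chain of type III collagen, was at 561, 541 and 369.7 CPM in control and 924, 894 and 1174 CPM in HD-het libraries (log2 fold change 1.02). Col5a2, a chain of type V collagen, which limits fibril diameter, went from 606, 603 and 465 to 3.89, 5.55 and 4.73 CPM and was 118-fold lower. The summed level of the collagen genes was 5840 to 7570 CPM in control and 18600 to 20900 CPM in HD-het libraries.

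The other matrix groups also rose more often than they fell. Among 39 other matrix genes 24 rose and 10 fell, with a median of 0.91, among 30 integrins and laminins 17 rose and 5 fell, with a median of 0.73, and among 30 matrix proteases and inhibitors 19 rose and 5 fell, with a median of 0.77. Fbln1, the elastic-fibre protein fibulin 1, rose by 7.18 on the log2 scale, and Itga8, an integrin chain that binds fibronectin and nephronectin, went from 1 or 2 reads in the control libraries to 5.98, 6.34 and 4.49 CPM, at least 59.3-fold higher. Has2, a hyaluronan synthase, was at 155, 158 and 155 CPM in control and 51, 56.3 and 61.7 CPM in HD-het libraries, and every HD-het library was lower. Adamts1, a protease that cuts proteoglycans, went from 41.9, 42.6 and 41.7 to 8.57, 7.38 and 8.54 CPM, while the membrane protease Mmp17 rose by 4.03 on the log2 scale. The collagen cross-linking enzyme Loxl4 went from 107, 110.02 and 114 to 34, 32.4 and 27.1 CPM, and its relative Lox, chosen after its values were seen, went the other way, from 218, 223 and 157 to 2825, 2947 and 2578 CPM.

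Contractile genes of smooth muscle rose as a group, with 17 of 23 higher and 2 lower and a median log2 fold change of 0.71. Tagln, the actin-binding protein transgelin, was at 292, 297 and 227 CPM in control and 1810.4, 1678 and 1880.2 CPM in HD-het libraries (log2 fold change 2.72 ± 0.28, adjusted p = 8.4e-06). Acta2, the smooth muscle actin, was at 2384, 2374 and 2056 CPM in control and 5639, 5300.5 and 4931 CPM in HD-het libraries (1.22 on the log2 scale). Cnn1, which encodes calponin, went from 1.74, 1.84 and 1.39 to 46.4, 45.8 and 26.2 CPM. All 3 genes were without overlap, and the third HD-het library was the lowest of its line for Cnn1 and Acta2. The members that fell were Mkl1, a coactivator of serum response factor on chromosome 15, which fell by 1.28, and Smtn, which encodes smoothelin and fell by 0.68 on the log2 scale. The 5 tested smooth muscle and pericyte markers rose, and their summed level was 2380 to 2790 CPM in control and 7030 to 7730 CPM in HD-het libraries. Of 6 tested fibroblast markers 3 rose and 2 fell, with a summed level of 2570 to 3480 CPM in control and 7870 to 9100 CPM in HD-het cells, and the fibroblast markers Lum and Thy1 stayed at 0 or 1 read. The part of other cell types in the matrix and contractile changes was not tested.

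Genes of the TGF-beta and BMP pathway rose more often than they fell, with 31 of 55 higher, 7 lower and a median of 0.44. Bmpr1b, a type I BMP receptor, rose by 3.48 on the log2 scale and Gdf5, a BMP-family ligand of joints, was at least 28.2-fold higher. The ligand Bmp8b went from 5.72, 6.36 and 4.26 CPM to at most 2 reads, at least 61.5-fold lower, and Bmp6 fell by 1.76. Tgfb2, a TGF-beta ligand chosen after its values were seen, was at 43.5, 42.7 and 31.1 CPM in control and 147, 142 and 147 CPM in HD-het libraries. In the Wnt pathway 27 of 48 genes rose and 14 fell, with a median of 0.48. The median was 0.56 with 3 genes at the floor in 1 line set to their bound and 2 at the floor in both left out. The secreted Wnt regulator Dkk3 rose by 6.30 on the log2 scale. The ligands Wnt7a and Wnt7b both fell, Wnt7a from 11.9, 12.7 and 17.1 to 0.818, 0.732 and 1.26 CPM and Wnt7b, on chromosome 15, from 15.9, 16 and 19.9 to 0.62, 1.04 and 0.569 CPM.

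Growth factor genes were mixed. Of 46 PDGF, FGF and EGF ligands and receptors 20 rose and 11 fell, with a median of 0.15. Pdgfrb, the PDGF receptor of mural cells and fibroblasts, was at 99, 94.9 and 84.3 CPM in control and 379.8, 355 and 351 CPM in HD-het libraries (log2 fold change 1.97 ± 0.10, adjusted p = 5.7e-08). Fgf7 rose by 2.18 on the log2 scale, and the neuregulin receptor Erbb3 fell by 3.80 and Fgf15 fell by 4.78. In the IGF axis 5 of 16 genes rose and 3 fell. Igfbp2, a secreted IGF-binding protein, went from 5.66, 6.87 and 4.87 to 779, 677 and 647 CPM and was 121-fold higher, whereas the ligand Igf2 fell by 2.12. Bdnf, the neurotrophin that supports striatal neurons, stood at 62.2, 67.3 and 61.4 CPM in control and 105, 109.8 and 118 CPM in HD-het libraries (log2 fold change 0.80 ± 0.10, adjusted p = 4.6e-05).

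**Figure D2:**
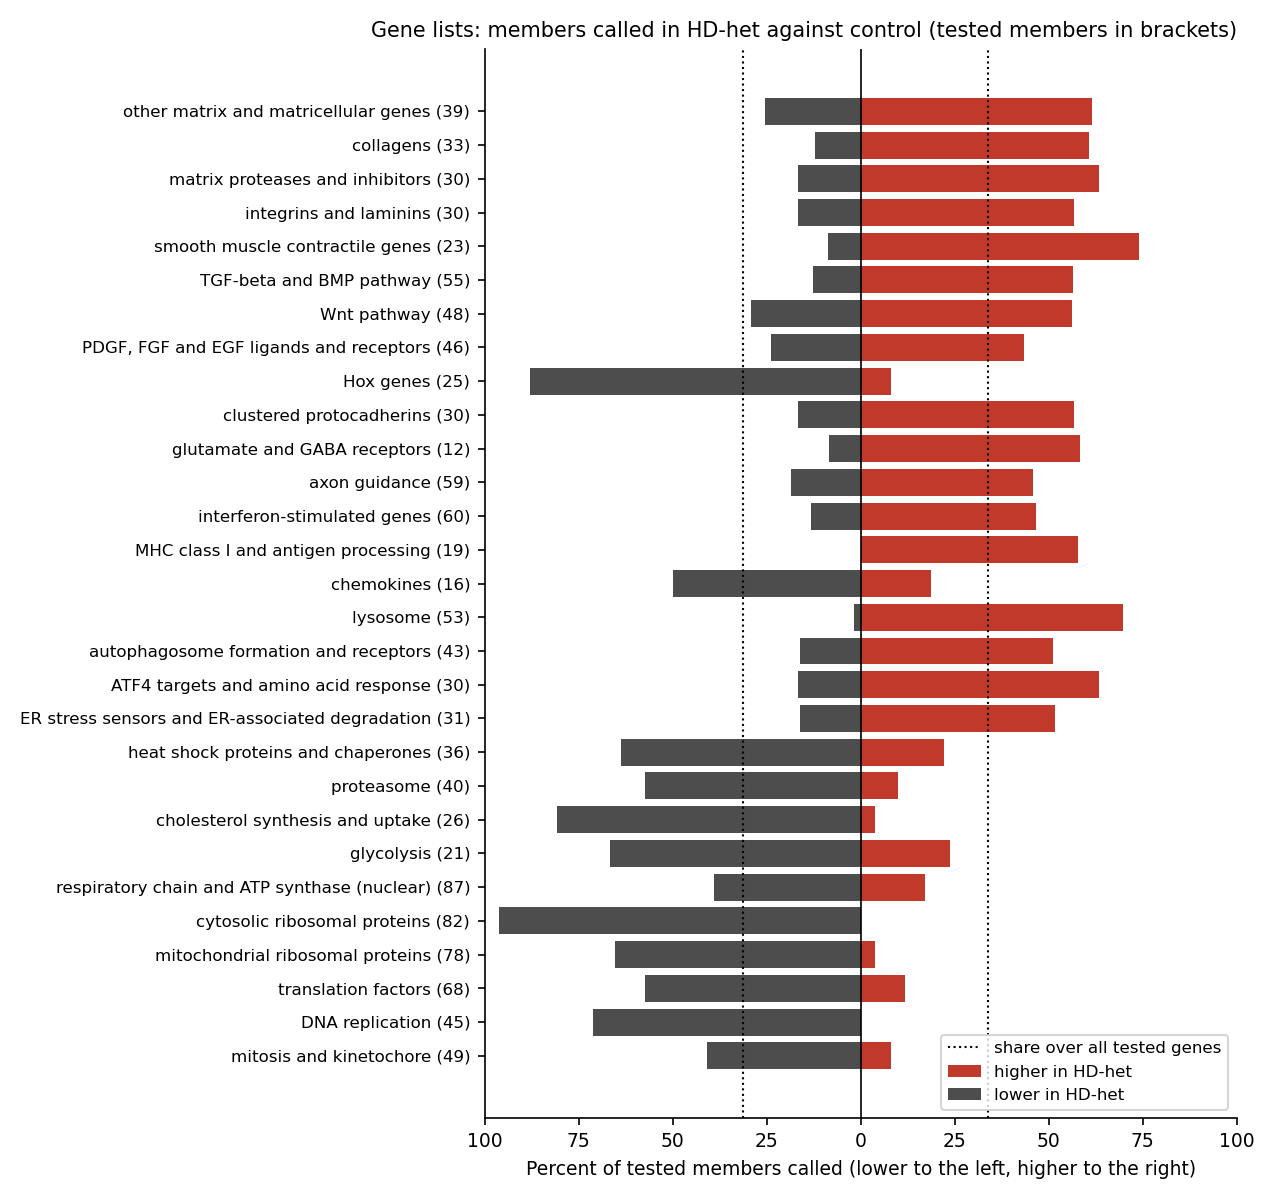
Percentage of the tested members of 29 gene groups called higher (bars to the right) or lower (bars to the left) in HD-het cells, with the number tested in brackets and dotted lines at the shares over all tested genes (33.8% higher, 31.4% lower). Lysosomal and smooth muscle genes reach furthest right, and cytosolic ribosomal proteins and Hox genes furthest left.

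Hox genes fell almost throughout. Of 25 tested, 22 fell and 2 rose, with a median log2 fold change of -3.79, or -3.14 with the 12 genes at the floor in 1 line set to their bound. The summed level of the family was 136 to 159 CPM in control and 9.22 to 13.8 CPM in HD-het libraries. Hoxb6 was at 14.6, 13.2 and 16.6 CPM in control and 0.79, 0.427 and 1.29 CPM in HD-het libraries (log2 fold change -4.14 ± 0.27, adjusted p = 2.8e-07). Hoxa10 went from 2.3, 1.78 and 2.27 CPM to at most 2 reads, at least 23.9-fold lower. Hoxb9, chosen after its values were seen, went from 59.9, 57.5 and 64.3 to 3.33, 3.32 and 4.31 CPM. Hoxd8, one of those that rose, stayed below 1 CPM in all 6 libraries, and Hoxa2 was not called. The decrease held off chromosome 15, where the Hoxc cluster lies: 17 of 20 members elsewhere fell. Since a Hox gene had to be read in at least 1 line to be tested, 14 of 39 listed members were not.

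Regulators of forebrain development moved both ways. Among 19 tested striatal and forebrain transcription factors 9 rose and 4 fell, with a median of 0.28. Dlx2, a homeobox factor of ganglionic eminence progenitors, was at 16.7, 15.5 and 16.4 CPM in control and 4.2, 3.96 and 5.81 CPM in HD-het libraries, and Sp8, a zinc-finger factor of the same region, fell by 2.11. Gsx1, which patterns the ganglionic eminence, rose by 2.49 and Meis1 by 0.98 on the log2 scale, and Foxp1, a factor of striatal projection neurons, went from 95.7, 97.7 and 87.9 to 113, 113 and 116 CPM (log2 fold change 0.28). Among 31 Pax and Lhx factors and members of the Sall, Eya and related families 13 rose and 10 fell. Eya1 and Eya2, transcriptional coactivators with phosphatase activity, had 0 to 3 reads in each control library and were at least 28.1-fold and 25.9-fold higher in HD-het cells.

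Genes of neurons moved both ways, with more members higher than lower, and most of the receptor genes were too low to be tested. Among 22 genes of the neuronal cytoskeleton and growth cone 12 rose and 7 fell, with a median of 0.23. Stmn2, a microtubule regulator of growing neurites, was at 57.6, 57.5 and 46.1 CPM in control and 2.99, 2.5 and 2.64 CPM in HD-het libraries (log2 fold change -4.31 ± 0.15, adjusted p = 2.7e-09). Nefm, a neurofilament chain, had 81, 99 and 115 reads in control and 0 or 1 in HD-het libraries, at least 35.2-fold lower, whereas Ina, another neuronal intermediate filament, rose by 1.73 on the log2 scale. Of 12 tested glutamate and GABA receptor genes 7 rose and 1 fell, with a median of 1.73, and 30 of the 42 listed were too low to be tested. The median was 2.26 with 1 gene at the floor in 1 line set to its bound and 1 at the floor in both left out. Gria3, an AMPA receptor subunit, went from 0.56, 0.565 and 0.406 to 23.6, 27.5 and 17.1 CPM (log2 fold change 5.46 ± 0.25, adjusted p = 1.8e-08), and its relative Gria4 rose by 4.23. The member that fell, Grik5, a kainate receptor subunit, had an adjusted p of 0.017 and was not called without the first control library.

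Among 19 striatal signalling genes 9 rose and 5 fell. Cnr1, the CB1 cannabinoid receptor, rose by 3.27 and the inositol trisphosphate receptor Itpr1 fell by 1.49 on the log2 scale. The immediate-early genes moved in opposite directions: Egr1 was at 43.3, 41.6 and 40.5 CPM in control and 167, 167 and 108 CPM in HD-het libraries, and Arc, on chromosome 15, was at 88.4, 84.2 and 74.2 CPM in control and 28.3, 23.3 and 13 CPM in HD-het libraries. In both genes the third HD-het library was the lowest of its line, and neither overlapped. Of 59 axon guidance genes 27 rose and 11 fell, with a median of 0.26, or 0.18 with genes at the floor set to their bound. The receptor Robo1 had 0 or 1 read in control libraries and was at least 66-fold higher, the netrin receptor Unc5c rose by 3.57, and the semaphorins Sema4d and Sema4b fell by 1.81 and 1.31 on the log2 scale. With the HD-homo libraries left out of the fit, 18 axon guidance genes fell.

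Adhesion and channel genes moved both ways, with more members higher than lower. Of 30 tested clustered protocadherins 17 rose and 5 fell, with a median of 1.33, although their summed level was 96.4 to 102 CPM in control and 109 to 122 CPM in HD-het libraries. The clusters lie on chromosome 18, where 58.9% of 355 tested genes rose and 13% fell, with a median of 0.33. The shares of the group (56.7% higher, 16.7% lower) were thus close to those of its chromosome. Pcdhb17 rose by 3.17 and Pcdhga5 by 2.66, while Pcdhgb5 fell by 3.61 on the log2 scale. Clustered protocadherins share sequence, so reads could be divided among near-identical members. Of 23 cadherins and catenins 12 rose and 6 fell. Cdh10, a neuronal cadherin on chromosome 15, was at 0.747, 0.446 and 0.44 CPM in control and 9.95, 11.2 and 9.28 CPM in HD-het libraries, and Cdh6 fell by 2.32. Among 31 voltage-gated channel genes 14 rose and 7 fell, with a median of 0.73, but the median was -0.596 among those with at least 10 counts in every library. The potassium channels Kcnh1 and Kcnd3 had 0 to 2 reads in each control library and were at least 32.6-fold and 38.8-fold higher, and Cacna1g, a T-type calcium channel, fell by 2.33.

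Many antiviral genes rose, while their summed level moved little. Of 60 tested interferon-stimulated genes 28 rose and 8 fell, with a median log2 fold change of 0.96. The median was 0.83 with 5 genes at the floor in 1 line set to their bound and 5 at the floor in both left out. Their summed level was 411 to 416 CPM in control and 430 to 442 CPM in HD-het libraries. Ifi27, a mitochondrial interferon-induced protein, was at 0.591, 0.416 and 0.541 CPM in control and 23.7, 21.8 and 30.4 CPM in HD-het libraries (log2 fold change 5.61 ± 0.52, adjusted p = 3.6e-06). Ifi44 had 1 or 2 reads in each control library and was at least 19-fold higher. Trim25, the ubiquitin ligase that activates RIG-I, moved the other way, from 5.54, 5.32 and 5.38 CPM to 0.0282, 0.152 and 0.0898 CPM, 60-fold lower. Of the genes whose promoter element was shown, chosen for their size of change, Trim21, Irgm1 and Ddx58 rose by 3.20, 0.73 and 0.70, and Ifitm3 and Ifitm2 fell by 1.03 and 0.58 on the log2 scale. The element stood in 13 of 23 promoters of members that rose, 2 of 7 of those that fell and 9 of 17 of those not called.

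Antigen-presentation genes rose without exception among those called. Of 19 tested MHC class I and processing genes 11 rose and none fell in edgeR's test, with a median of 0.77. None fell at an unadjusted p below 0.05 or in DESeq2 either. Tap2, a subunit of the peptide transporter, was at 1.31, 1.52 and 1.62 CPM in control and 8.63, 8.99 and 7.73 CPM in HD-het libraries (log2 fold change 2.51 ± 0.20, adjusted p = 1.2e-06). B2m, the light chain of class I molecules, went from 136, 135 and 137 to 248, 246 and 293 CPM. Classical and non-classical H2 genes share sequence, so counts of single members such as H2-T24, which rose by 2.47 on the log2 scale, are uncertain.

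Secreted immune signals split. Of 16 tested chemokines 3 rose and 8 fell, with a median of -1.20, or -1.02 with genes at the floor set to their bound. Cx3cl1, a membrane-bound chemokine, was at 222, 224 and 180.1 CPM in control and 784, 753 and 453 CPM in HD-het libraries. Ccl2, which attracts monocytes, was at 76.4, 74.5 and 92.4 CPM in control and 9.62, 11.3 and 7.31 CPM in HD-het libraries (log2 fold change -3.11 ± 0.44, adjusted p = 8.5e-05), and Ccl7 fell by 3.05. Neither Cx3cl1 nor Ccl2 overlapped between the lines. Because Cx3cl1 outweighed the rest, the summed chemokine level was higher in HD-het cells, at 734 to 992 CPM against 440 to 472 CPM. With the HD-homo libraries left out of the fit, 5 chemokines rose. Lif, a cytokine of the interleukin 6 family, went from 18.9, 20.1 and 16.2 to 103, 88.2 and 53.1 CPM, in a group where 5 of 14 rose and 2 fell. Only 3 of those 14 rose without the first control, the third control or the second HD-het library. Masp1, a protease of the lectin pathway of complement, went from 24.7, 22.7 and 18 to 236, 208 and 221 CPM, and C1s1 rose by 3.68 on the log2 scale, in a group of 13 with 5 higher and 3 lower.

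The genes of cholesterol synthesis and uptake fell together. Of 26 tested, 21 fell and 1 rose, with a median log2 fold change of -0.92, and the summed level was 2420 to 2820 CPM in control and 1120 to 1200 CPM in HD-het libraries. Idi1, the isomerase of the isoprenoid precursors, was at 71.3, 70.1 and 85.3 CPM in control and 11.4, 12.1 and 14.2 CPM in HD-het libraries (log2 fold change -2.59 ± 0.18, adjusted p = 3.8e-07). Every HD-het library was lower than every control library. The member that rose was Dhcr7, which reduces the sterol ring, at 13.4, 12.8 and 14.7 CPM in control and 17.9, 18.1 and 21.6 CPM in HD-het libraries (0.50 on the log2 scale).

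Srebf2, the regulator of the group, and the epoxidase Sqle lie on chromosome 15, and both were chosen after their values were seen. Srebf2 was at 404, 389 and 425 CPM in control and 134, 125 and 128 CPM in HD-het libraries (log2 fold change -1.65 ± 0.11, adjusted p = 3.8e-07). Sqle was at 224, 213 and 253 CPM in control and 59.2, 57.6 and 68.5 CPM in HD-het libraries (-1.90 on the log2 scale). Without these 2 genes, 19 of 24 members still fell, with a median of -0.841. The genes shown by their promoter element lay on other chromosomes except Srebf2: Cyp51 fell by 1.32, Msmo1 by 1.12 and Hmgcs1 by 1.11 on the log2 scale. Ggps1, Tm7sf2 and Ebp were not called.

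**Figure D3:**
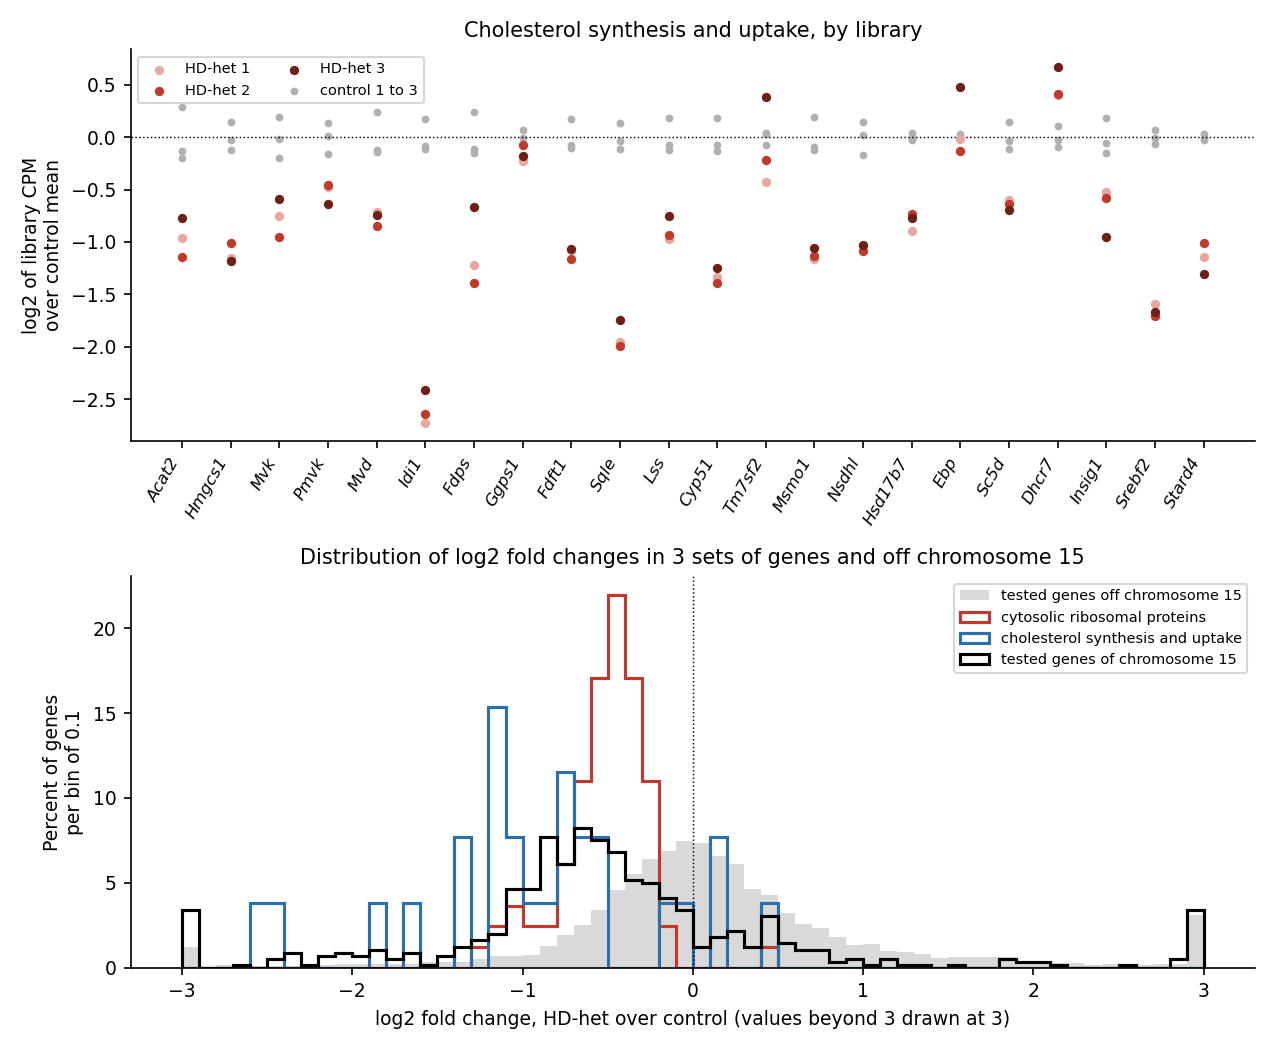
Top, log2 ratio of CPM to the control mean for 22 cholesterol genes in pathway order, 1 point per library (control grey, HD-het in shades of red). Bottom, share of genes by log2 fold change for tested genes off chromosome 15, cytosolic ribosomal proteins, cholesterol genes and chromosome 15 genes. Ribosomal proteins form a narrow peak around -0.48, and cholesterol and chromosome 15 genes are spread more widely and mostly below 0.

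Genes of the translation machinery were lower. Of 82 tested cytosolic ribosomal protein genes 79 fell and none rose in edgeR's test, with a median log2 fold change of -0.48. The exceptions, Rpl37a, Rpl3l and Rps14, were not called, and none rose at an unadjusted p below 0.05 or in DESeq2. The summed level of the group was 35100 to 40000 CPM in control and 23000 to 27000 CPM in HD-het libraries. Of the 4 members on chromosome 15, all lower, Rpl8 was at 1535, 1541 and 1746 CPM in control and 707, 660.04 and 797 CPM in HD-het libraries and Rpl30 fell by 1.25, and off that chromosome 75 of 78 members fell with a median of -0.47. Ribosomal protein genes have many processed pseudogenes, so the counts of single members are less certain than their sum. They are also short, with a median transcript length of 1054 bases. The fifth of tested genes with the shortest transcripts, 150 to 2008 bases, had a median of -0.036 with 35.6% lower and 30% higher, and the longer classes had medians of 0.023 to 0.044. The part of length in the decrease was not tested.

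Translation factors followed, with 39 of 68 lower and 8 higher and a median of -0.34. Pabpc1, the poly(A)-binding protein, was at 2422, 2423 and 2654 CPM in control and 1146, 1134 and 1345 CPM in HD-het libraries, and Eif3l, a subunit of initiation factor 3, fell by 1.04. Both lie on chromosome 15, where all 7 tested members fell, and elsewhere 32 of 61 fell with a median of -0.237. Without the first control library, 5 translation factors rose. Of 78 mitochondrial ribosomal proteins 51 fell and 3 rose, with a median of -0.28, and Mrpl36 was the largest increase at 1.90 on the log2 scale. Aminoacyl-tRNA synthetases showed no lean, with 9 of 20 higher and 9 lower. Nars, for asparagine, rose by 0.80, and Kars and Vars, for lysine and valine, fell by 0.78 and 0.75.

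Chaperones and the proteasome were lower in the main. Of 36 heat shock proteins and chaperones 23 fell and 8 rose, with a median of -0.44, and Hspa1b and Hsph1, inducible cytosolic chaperones, fell by 1.59 and 1.5 on the log2 scale. Of 40 proteasome genes 23 fell and 4 rose, with a median of -0.21, and 2 rose without the first control, the second control or the third HD-het library. Psma5, a subunit of the core particle, fell by 0.77.

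Lysosomal genes went the other way. Of 53 tested, 37 rose and 1 fell, with a median of 0.48, and the summed level was 5670 to 6080 CPM in control and 7620 to 8320 CPM in HD-het libraries. Ctso, which encodes cathepsin O, was at 1.34, 1.25 and 1.45 CPM in control and 8.32, 9.08 and 7.07 CPM in HD-het libraries, and Atp6v0a4, a subunit of the proton pump, rose by 2.84. The gene that fell, Atp6v1c1, another pump subunit, lies on chromosome 15. Grn, the lysosomal protein progranulin, and Ctsd, cathepsin D, were chosen after their values were seen. Grn was at 100.01, 97.4 and 105 CPM in control and 264, 245 and 265 CPM in HD-het libraries, and Ctsd at 255, 247 and 259 and 568, 519.7 and 546 CPM, both without overlap. Of 43 autophagy genes 22 rose and 7 fell, with a median of 0.20. Sqstm1, the receptor p62, was at 369, 371 and 408 CPM in control and 612, 599 and 501 CPM in HD-het libraries, and the receptor Optn rose by 1.25 on the log2 scale.

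Stress pathways were uneven. Of 30 targets of ATF4 and the amino acid response 19 rose and 5 fell, with a median of 0.45, while Atf4 itself, on chromosome 15, had a log2 fold change of -0.21 ± 0.059 (adjusted p = 0.0095). Trib3, a pseudokinase, was at 8.27, 9.01 and 7.67 CPM in control and 58.5, 53 and 62.7 CPM in HD-het libraries. Chac1, which degrades glutathione, was at 9.55, 9.9 and 9.8 CPM in control and 37.1, 33.6 and 39.2 CPM in HD-het libraries. Both were without overlap, in a group where Ddit4, an inhibitor of mTORC1 signalling, fell by 0.89. Of 31 genes of ER stress and ER-associated degradation 16 rose and 5 fell, with a median of 0.21, and Xbp1, the spliced transcription factor of the response, rose by 0.67. Of 31 NRF2 genes 12 rose and 13 fell: Hmox1, the haem oxygenase, was at 69.7, 68.8 and 59 CPM in control and 246, 239 and 146 CPM in HD-het libraries, and Nqo1 fell by 1.13.

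Of 21 glycolysis genes 14 fell and 5 rose, with a median of -0.22, and 9 fell without the second HD-het library. Slc2a3, a glucose transporter of neurons, was at 20.1, 19 and 18.7 CPM in control and 2.57, 3.08 and 2.58 CPM in HD-het libraries, and Pfkl, a phosphofructokinase, fell by 1.36. Ldhb, a lactate dehydrogenase chain, rose by 2.72, and Eno2, the neuronal enolase, rose by 1.72. Of 87 nuclear genes of the respiratory chain and ATP synthase 34 fell and 15 rose, with a median of -0.07. The median was 0.007 without the third control library, and 7 to 9 genes rose when either the first or second control or the first HD-het library was left out. Off chromosome 15, 29 of 81 fell. Of the members that fell, Atp5g2, of ATP synthase, and Cox6c, of cytochrome oxidase, lie on chromosome 15 and fell by 0.91 and 0.86. Ppargc1a, the coactivator that promotes mitochondrial biogenesis, rose by 0.71 on the log2 scale.

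Genes of DNA replication fell, and those of mitosis fell more often than they rose. Of 45 tested replication genes 32 fell and none rose in edgeR's test, at an unadjusted p below 0.05 or in DESeq2, with a median of -0.41. Cdc6, which loads the replicative helicase, was at 61.4, 58.8 and 68.6 CPM in control and 25.8, 26.2 and 35.4 CPM in HD-het libraries, without overlap. Of 49 mitosis and kinetochore genes 20 fell and 4 rose, with a median of -0.10, and the separase gene Espl1 and the centromere gene Cenpm, both on chromosome 15, fell by 1.28 and 1.05. Mki67, the proliferation marker Ki-67, was at 267, 305 and 249 CPM in control and 347, 379.7 and 358 CPM in HD-het libraries (log2 fold change 0.40 ± 0.11, adjusted p = 0.0072). Ccnd1, the cyclin of G1 progression, was at 699, 685 and 833 CPM in control and 142, 139 and 136 CPM in HD-het libraries, 5.31-fold lower, and Ccnb2, a mitotic cyclin, rose by 1.5. Among DNA repair genes 13 of 32 fell and 6 rose. Msh3, a mismatch repair protein that acts on repeat loops, fell by 0.65, and Fan1, a nuclease of interstrand crosslink repair, rose by 0.51 on the log2 scale.

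The HD-het line read chromosome 15 at a lower level along most of its length. Of 558 tested genes on it 384 fell (68.8%) and 70 rose (12.5%), with a median log2 fold change of -0.55 and quartiles of -0.90 and -0.13. The median corresponds to a ratio of 0.685. Genes were counted by symbol, and some neighbours appear to be the same gene under an older and a current symbol. Retreg1 and Fam134b, for example, had log2 fold changes of -0.543 and -0.550. Such symbols were counted separately here and in the totals. Off chromosome 15, 29.7% of 12950 genes fell and 34.7% rose, with a median of 0.0438. Chromosome 15 thus held 4.13% of the tested genes and 9.07% of the genes that fell. In single libraries chromosome 15 took 6.55, 6.52 and 6.60% of the counts in control and 4.38, 4.32 and 4.40% in HD-het cells. The HD-homo libraries stood at 6.57, 6.45 and 6.42%, with a median log2 fold change over control of 0.03. The 3 HD-het libraries were thus close to each other and below all the others.

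**Figure D4:**
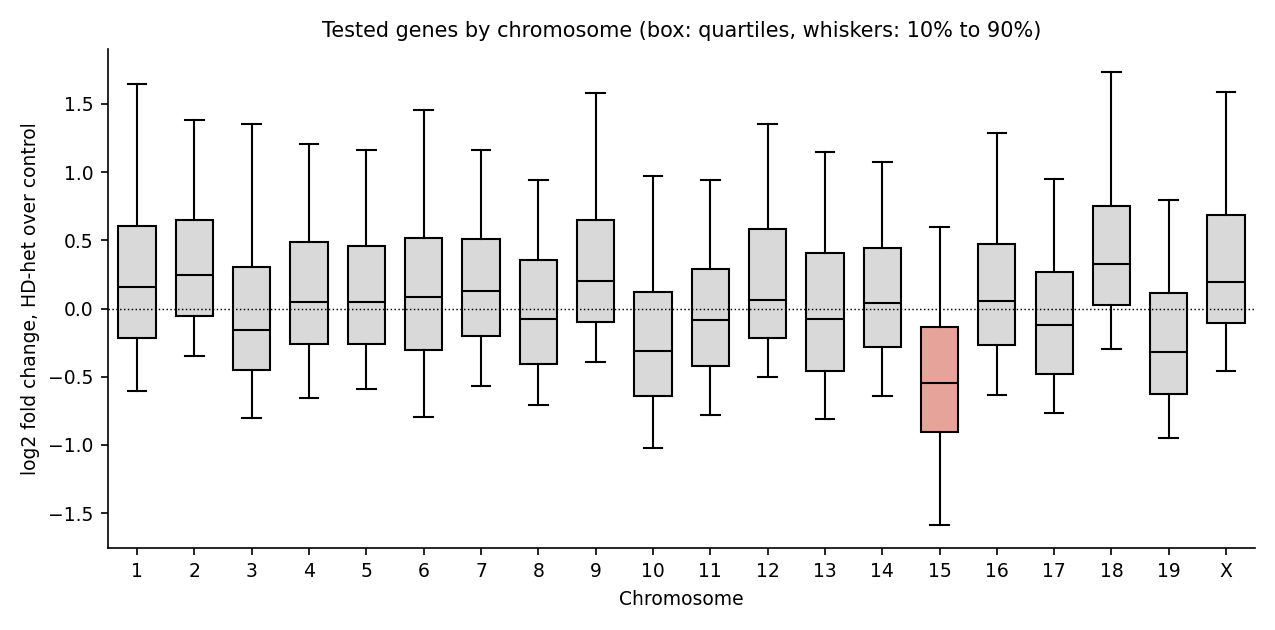
Log2 fold change of HD-het over control for the tested genes of each chromosome (box, quartiles and median; whiskers, 10th to 90th percentile; chromosome 15 coloured). Chromosome 15 has the lowest median, -0.55, followed by chromosomes 19 and 10, and chromosome 18 has the highest, 0.33.

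The decrease was clearest among well-read genes. Of 380 chromosome 15 genes with a mean of at least 10 CPM, 312 fell (82.1%) and 27 rose, with a median of -0.61, and 60% lay between -1 and -0.3 on the log2 scale. Off the chromosome, 35.2% of 8842 such genes fell and 23.4% lay in that band. Split by level, the lowest-read 186 genes had a median of -0.219 with 76 lower and 45 higher, and the highest-read 186 genes had a median of -0.649 with 165 lower and 5 higher. Along the chromosome the medians of 5 consecutive blocks of genes were -0.524, -0.526, -0.606, -0.489 and -0.613, against 0.069, 0.098, -0.005, 0.009 and -0.019 for HD-homo over control. A running median over 25 neighbouring genes was below 0 in all 534 windows and below -0.3 in 93.8% of them, and ranged from -0.912 to -0.021. The windows include the outermost genes at either end but are not centred on them. DNA copy number was not analysed here, and the cause of the shift was not tested.

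**Figure D5:**
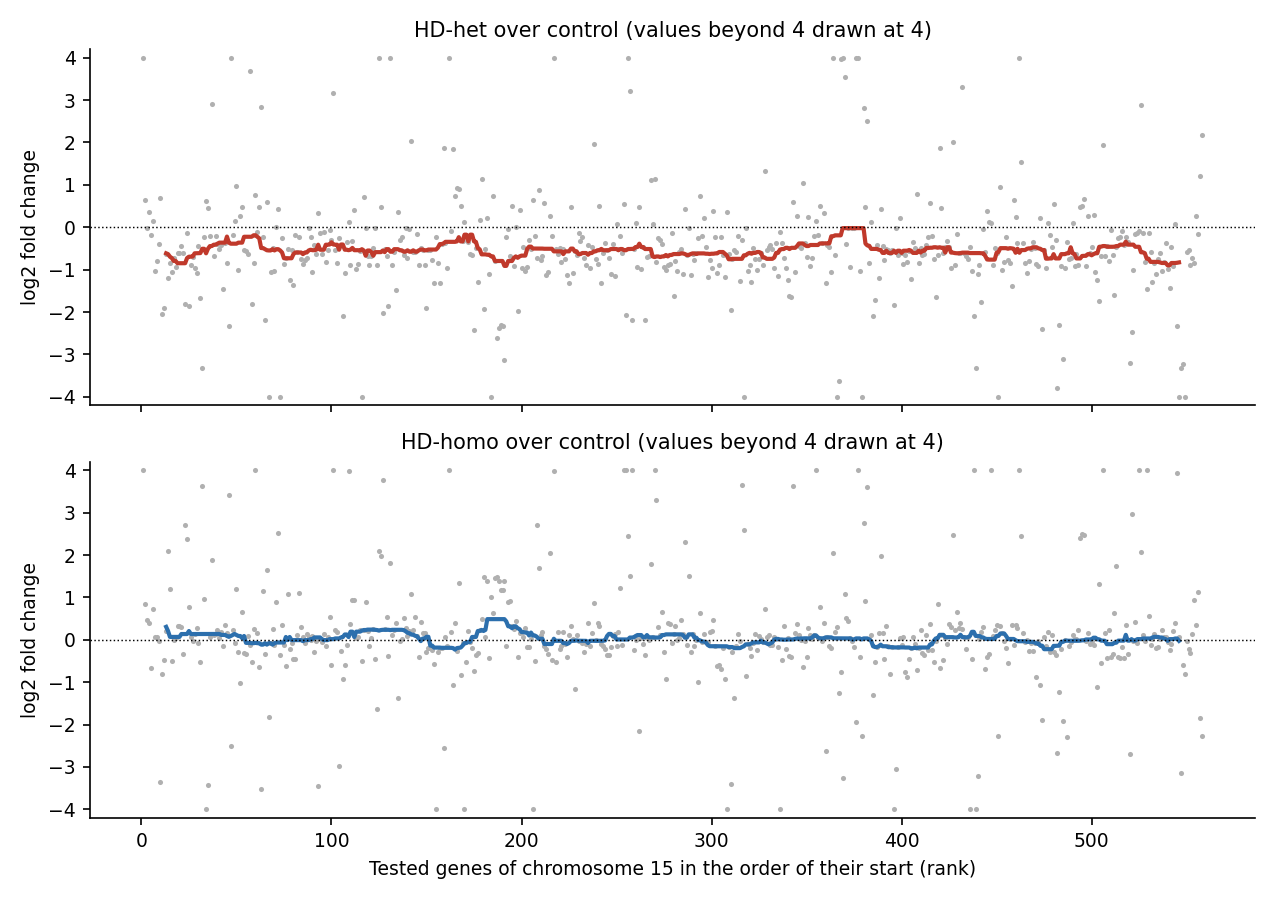
Log2 fold change of HD-het (upper) and HD-homo (lower) over control for the 558 tested genes of chromosome 15 in genomic order, with the running median of 25 genes (values clipped at 4 and -4). The HD-het running median stays below 0 in every window. That of HD-homo lies on both sides of 0, between -0.232 and 0.488, and is highest around the Ly6 cluster.

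Single chromosome 15 genes followed the shift or broke from it. Lgals1, the carbohydrate-binding protein galectin 1, was at 2104, 2113 and 2249 CPM in control and 1081, 992 and 1151 CPM in HD-het libraries. Plec, the cytoskeletal linker plectin, was at 1868, 1749 and 1817 CPM in control and 924, 869 and 813 CPM in HD-het libraries, and Tuba1b, an alpha tubulin, fell by 0.51. Myh9, the heavy chain of non-muscle myosin IIA and among the 5 highest-read genes of the chromosome, overlapped between the lines, at 3811, 3729 and 3529.6 CPM in control and 4144, 3755 and 3929 CPM in HD-het libraries (log2 fold change 0.10 ± 0.072, adjusted p = 0.26). Parvb, a focal adhesion adaptor, was at 96.1, 97.5 and 102 CPM in control and 5.44, 5.64 and 4.64 CPM in HD-het libraries, and the water channel Aqp5 fell by 2.31, well below the chromosome median.

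Some genes rose against it. Tnfrsf11b, the decoy receptor osteoprotegerin, was at 7.06, 7.11 and 4.36 CPM in control and 95.5, 100.5 and 111 CPM in HD-het libraries, and Col14a1, a fibril-associated collagen, went from 0 or 1 read in control libraries to 13.3, 13.9 and 13.8 CPM, at least 145-fold higher. The lowest windows of the running median lay around the Ly6 cluster of small lipid-anchored surface proteins, which was chosen after its values were seen. Ly6a was at 5.76, 5.35 and 4.8 CPM in control and 0.874, 1.31 and 0.869 CPM in HD-het libraries, and at 10.9, 12.6 and 18.3 CPM in HD-homo libraries. Ly6c1 and Ly6c2 fell by 2.30 and 2.33, and the more divergent Ly6e by 0.80 on the log2 scale. Ly6a, Ly6c1, Ly6c2 and Ly6i are close copies, and reads could be divided among them.

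Smaller shifts were seen on other chromosomes. The median log2 fold change was -0.31 on chromosome 10, where 52.5% of genes fell, and -0.32 on chromosome 19, where 53.4% fell. Chromosome 18 had a median of 0.33 with 58.9% higher, and chromosome 2 a median of 0.24 with 49.7% higher. The medians of the remaining autosomes and the X lay between -0.155 and 0.20. Running medians on chromosomes 10 and 19 were below -0.3 in 47.6% and 56% of windows, and none was below 0 on chromosome 18. Regions could shift further than a chromosome median. The lowest window off chromosome 15 was -0.863, on chromosome 3, where 18.5% of windows were below -0.3. The highest window was 1.522, on chromosome 18. The Hox, sterol and cytosolic ribosomal protein groups had 5, 2 and 4 tested members on chromosome 15, and their medians without them were -3.83, -0.841 and -0.47.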

How the data were processed

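Poly(A) mRNA libraries from 3 striatal cell lines, 3 each, were prepared with a directional kit. The authors deposited 1 table of whole-number counts per gene, with 36410 rows and no normalization. The submitters' processing notes name cutadapt, Bowtie 1.1.2, RSEM 1.3.0, DESeq2, GRCm38.p5 and mm10, without roles, and whether the values are read counts or rounded RSEM estimates is not stated. Splitting of multi-mapped reads could therefore affect genes with close copies.

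Genes passing edgeR's filterByExpr (minimum count of 10) were tested with edgeR 4.0.16 in R 4.3.3: TMM factors, 1 coefficient per line over all 9 libraries, quasi-likelihood F test of HD-het minus control, and Benjamini-Hochberg adjustment over 13508 genes at 0.05. The filter and the TMM factors also used all 9 libraries. The use of every line shares 1 estimate of the spread. Library totals of 29507665 to 35978570 counts set the floor of 3 counts at 0.0846 to 0.101 CPM (counts scaled to a common total). Floors cover counting error only.

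Gene groups and members were chosen with earlier results of these data known, so group counts are descriptions and no group was given a p-value. Genes named were Htt, the 12 largest increases and decreases at 10 CPM or more without overlap, up to 2 called members per group and direction at 1 CPM or more, all tested members of groups of 8 or fewer and preset anchors of a group, and on chromosome 15 the 5 highest-read genes with the 3 largest changes each way. Others are stated as chosen after their values were seen. Promoters came from RefSeq (GRCm38.p6) and positions from GRCm38 annotation, matching 99.1% of tested genes. Of the listed names, 26 read as dates, of which 20 were tested and none was put in a group. The test was checked on simulated counts. Alternatives were another size factor, library totals, TMM without chromosome 15, DESeq2 1.42.0, other count filters, only 6 libraries, a replicate block, leaving out each library, stricter thresholds and groups without chromosome 15 members. Some genes are not reported here, although they were tested and count in their groups.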

Additional observations from a re-analysis of the deposited data

How the results depend on the processing

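No gene was called in the opposite direction under any alternative. For the 261 values of named genes, 3506 of 3575 alternative values stayed on the same side of the threshold and none reversed. At a log2 threshold of 1, 1622 genes were higher and 868 lower. Leaving out 1 library gave 4082 to 4452 higher and 3783 to 4122 lower genes, and on chromosome 15 58 to 66 higher and 365 to 377 lower with a median from -0.56 to -0.547. That median was -0.560 with library totals, -0.565 with TMM without chromosome 15, -0.526 with no filter and -0.578 with at least 10 counts in every library, where 42 of its genes were higher. Group medians that changed sign were those of endothelial markers (-0.245) and fibroblast markers (-0.132) with no filter, of the Pax, Lhx and Sall families (-0.027) and voltage-gated channels (-0.596) with at least 10 counts in every library, of complement without HD-het replicate 2 (-0.027 to 0.347 over the libraries left out), and of histone acetyltransferases and deacetylases (0.016) and astrocyte markers (0.069) without chromosome 15 members. Group medians already near 0 also crossed it: the respiratory chain without control replicate 3 (0.007), the IGF axis with no filter (0.029), without control replicate 1 (0.002), without HD-het replicate 1 (0.037) and without chromosome 15 members (0.036), neuron markers with at least 10 counts in every library (0.105), without control replicate 2 (0.017) and without HD-het replicate 3 (0.033), and striatal projection neuron markers with no filter (0.275), at least 10 counts in every library (0.287) and only 6 libraries (0.093). The cause was not tested. At this depth genes at or under 3 counts in a line have no upper bound on their fold.

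Replicate numbers were not used as pairs in the main fit. Deviations of same-numbered control and HD-het libraries correlated at 0.0764, 0.331 and 0.244 over 10317 genes, and control 1 correlated better with HD-het 2 (0.144). The values for replicates 2 and 3 were the highest of all pairs, and pairs with unlike numbers ranged from -0.337 to 0.144. With the replicate block 4750 genes were higher and 4410 lower, with 71 and 388 on chromosome 15, whose median was -0.549. Chemokines then had 6 higher members and interleukins 1 lower, and Uty passed the threshold (adjusted p = 0.0393) while Clcf1 did not (0.0528).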
